A study of Mus musculus with 24 samples.

Results

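The metallothioneins described here are the genes Mt1, Mt2 and Mt3, found by symbol in a table of 47643 gene symbols and 24 brain libraries. All 3 were present, and all 3 passed the filter on low values in every comparison. Each library was made from hippocampus, cerebellum or neocortex of a C57BL/6J male 4 months old, and 4 libraries form each of 6 groups. In the LLC groups (replicates 1 to 4) the mice had been injected with LLC cells and the tissue was taken about 3 weeks later. In the control groups (replicates 14 to 17) they had received a mock injection. LLC is the usual abbreviation of Lewis lung carcinoma, a transplantable mouse tumour, although no label gives the full name and melanoma is the tumour named in the series title. The mice carried no engineered allele that the labels name, and tumour site, tumour size and body weight were not analysed here. The libraries are called biological replicates, and no label says whether the 3 libraries with one number came from 1 animal.

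Metallothioneins are small proteins rich in cysteine that bind zinc and copper. In the brain, Mt1 and Mt2 are made mostly by astrocytes and by cells of the vessel wall, the choroid plexus and the ependyma, and their transcription is raised by zinc through the factor MTF1, by glucocorticoids through the glucocorticoid receptor, and by cytokines such as interleukin 6 through STAT3. Mt3, first found as a growth inhibitory factor of the brain, is made in neurons and astrocytes, is abundant in neurons that store zinc in their synaptic vesicles, and responds less to those inducers. Their relative Mt4 is a gene of stratified epithelium.

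The 4 genes lie side by side on the plus strand of chromosome 8 (mm10, GENCODE M21 annotation). In order along the chromosome they are Mt4 (94137197 to 94139031), Mt3 (94152607 to 94154146, ENSMUSG00000031760.9), Mt2 (94172664 to 94173568, ENSMUSG00000031762.7) and Mt1 (94179082 to 94180327, ENSMUSG00000031765.8). Mt2 and Mt1 are the closest pair, separated by 5513 bases, against 18517 bases between Mt3 and Mt2. The main transcript of each member has 3 exons, with a spliced length of 549 bases for Mt1, 511 for Mt2 and 536 for Mt3. Their coding sequences hold 61, 61 and 68 codons before the stop, and 20 of those are cysteine codons in each of the 3 genes. The coding sequence of Mt1 was 79.2% identical to that of Mt2 and 65.7% identical to that of Mt3, and Mt2 and Mt3 were 67.2% identical. No stretch of 50 bases in a transcript of Mt1, Mt2 or Mt3 occurred in the transcripts of another gene. An antisense gene, Gm45774 (94170748 to 94173412), overlaps Mt2. The library kit kept the strand, but no source used here states whether counting used it, so reads of Gm45774 may be included in Mt2. Mt4 was listed at 0 in all but 2 control libraries, where it had 0.170 and 0.182 TPM, and it is not described further.

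**Figure D1:**
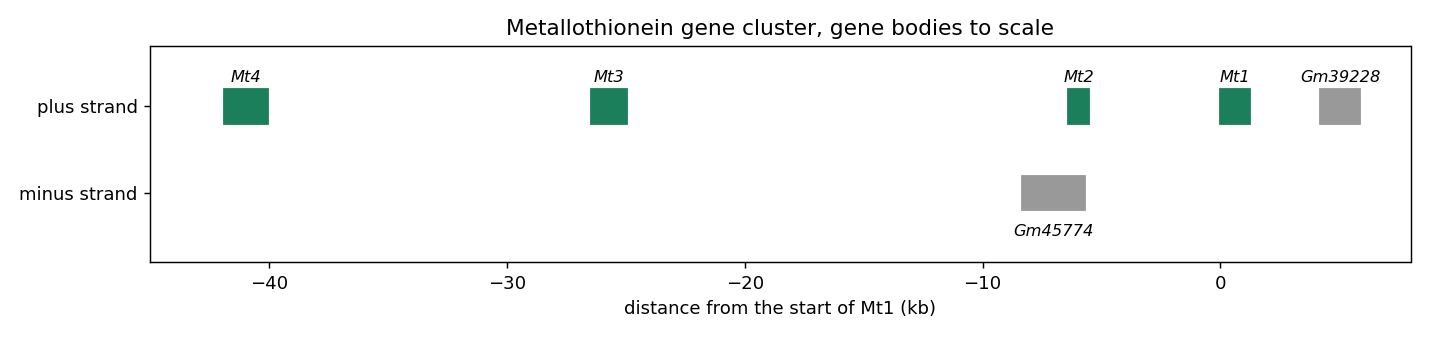
Map of the metallothionein locus. The horizontal axis gives the distance from the start of Mt1 in kilobases and the boxes are annotated genes, drawn to scale on their strand. Mt1 and Mt2 are neighbours, and Mt3 and Mt4 lie upstream of both, and Gm45774 overlaps Mt2 on the minus strand.

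The 3 members differ in the DNA just before their annotated starts, which is shown because Mt1 and Mt2 are known to respond to metal through sites near their starts. The windows hold the 250 bases before the RefSeq start of each gene (GRCm38.p6), written 5′ to 3′, and capitals mark the core of the metal response element, the site bound by MTF1. It was searched on both strands as TGCACNC or TGCGCNC.
Mt1, chr8:94178839-94179088, plus strand: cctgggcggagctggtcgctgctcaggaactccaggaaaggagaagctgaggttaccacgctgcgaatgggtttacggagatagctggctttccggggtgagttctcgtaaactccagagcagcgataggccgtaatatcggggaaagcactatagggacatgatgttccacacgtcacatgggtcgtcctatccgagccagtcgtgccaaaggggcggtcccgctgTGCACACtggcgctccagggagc
Mt2, chr8:94172368-94172617, plus strand: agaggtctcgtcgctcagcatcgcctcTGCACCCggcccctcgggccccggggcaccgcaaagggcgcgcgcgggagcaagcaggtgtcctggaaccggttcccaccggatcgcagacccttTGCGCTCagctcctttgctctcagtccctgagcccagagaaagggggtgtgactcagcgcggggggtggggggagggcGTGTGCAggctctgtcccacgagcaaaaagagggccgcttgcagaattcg
Mt3, chr8:94152357-94152606, plus strand: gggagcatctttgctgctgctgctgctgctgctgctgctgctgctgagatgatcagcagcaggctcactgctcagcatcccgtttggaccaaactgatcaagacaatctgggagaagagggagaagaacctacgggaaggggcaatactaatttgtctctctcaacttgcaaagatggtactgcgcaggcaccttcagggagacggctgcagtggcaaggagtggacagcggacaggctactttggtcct
The Mt2 window held 3 cores, the Mt1 window held 1, at bases -23 to -17 before the start, and the Mt3 window held 0. At least 1 core occurred in 21.4% of 32851 promoter windows of that length, and at least 3 occurred in 1.26%. With the 50 bases after the start added, the counts were 3 for Mt1, 4 for Mt2 and 1 for Mt3, and 1.97% of all such windows held at least 3. The start of Mt2 in GENCODE lies 46 bases downstream of the RefSeq start, which shifts its window. The count of Mt1 rests on its annotated start as well, since it went from 1 to 3 with the bases after that start. The contrast of 1 core in Mt1 with 3 in Mt2 therefore depends on where the windows end. Mt2 also held 1 core of the antioxidant response element, searched on both strands as TGACNNNGC, at bases -79 to -71. That core occurred in 10.2% of promoters. The letters of a full glucocorticoid response element (AGAACA and TGTTCT with NNN between them), of a STAT site (TTCNNNGAA) and of an E-box (CACGTG) were in none of the 3 windows. The first was found in 3 promoters, and the others in 7.02% and 6.02% of promoters. With shares this low, their absence from the 3 windows does not set these genes apart. A match in these letters, or the lack of one, describes the sequence of these windows and not binding.

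Expression was given as TPM, a read share corrected for transcript length and scaled to one total for all libraries. Read numbers are not part of the table, so the precision of single values is not known. A level of 1 TPM was reached by 14368 to 14847 genes per library. Markers of the 3 regions went with the labels: the summed level of 5 cerebellum markers was 2075 to 3743 TPM in cerebellum LLC libraries and 3329 to 3746 TPM in cerebellum control libraries, and at most 16.6 TPM in the other regions. Cerebellum LLC replicate 1 was the lowest of these, and its mean over those markers was 0.84 below the control mean on the log2 scale. LLC replicate 4 stood closer to the control mean than LLC replicates 1 to 3 did for Mt1, erythrocyte genes and glucocorticoid-induced genes in every region, and for Mt2 in neocortex and cerebellum. For Mt2 in hippocampus LLC replicate 2 was closer. For this reason values without LLC replicate 4 are given beside the results, a choice made after the values were seen. Haemoglobin RNA took 727 to 15477 TPM of a library, the most in LLC libraries.

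All 3 metallothioneins were among the most abundant transcripts of every library. Mt1 had 476 to 1803 TPM and ranked 29 to 210 of all genes, Mt2 had 271 to 1300.2 TPM and ranked 36 to 436, and Mt3 had 515 to 1087.5 TPM and ranked 53 to 160. Together they came to 1928 ± 188 TPM in LLC libraries and 1595 ± 74.0 TPM in control libraries of neocortex, 3296 ± 917 and 1871 ± 142 TPM in LLC and control cerebellum, and 2247 ± 81.7 and 2018 ± 96.4 TPM in LLC and control hippocampus (SD, n = 4 each). Mt3 made up 41.8% ± 4.13 of that sum in LLC neocortex and 48.5% ± 2.32 in control neocortex. Its share was 42.8% ± 4.61 in LLC hippocampus and 49.6% ± 3.87 in control hippocampus, and 23.8% ± 6.33 and 29.6% ± 3.63 in LLC and control cerebellum. Mt1 was the largest of the 3 in cerebellum.

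In control brain, Mt1 and Mt2 were highest in cerebellum and Mt3 was lowest there. Mt1 had 555, 577, 649 and 651 TPM in control hippocampus, 753, 672, 820 and 797 TPM in control cerebellum and 514, 476, 554 and 560 TPM in control neocortex. Mt2 had 406, 354, 464 and 412 TPM in control hippocampus, 474, 481, 647 and 631 TPM in control cerebellum and 284, 271, 311 and 320 TPM in control neocortex. Mt3 had 1055, 991, 871 and 1087.5 TPM in control hippocampus, 631, 522, 515 and 539.9 TPM in control cerebellum and 809, 756, 722 and 802 TPM in control neocortex. The hippocampus and neocortex values of Mt1 overlapped by 1 library, and no other pair of regions overlapped for any member. This was common: groups of 4 did not overlap for 81.1% of genes between cerebellum and neocortex, 56.9% between hippocampus and neocortex, and 76.8% between hippocampus and cerebellum.

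The differences between control regions were tested with limma on log2(TPM + 1), with adjustment over all genes tested. In cerebellum relative to neocortex, Mt1 was higher by 0.53 ± 0.07 (SE) on the log2 scale (adjusted p = 1.81e-05), Mt2 was higher by 0.90 ± 0.10 (adjusted p = 8.33e-06) and Mt3 fell by 0.49 ± 0.06 (adjusted p = 2.13e-05). Here 85.5% of genes passed. Relative to neocortex the hippocampus differed by 0.21 ± 0.06 for Mt1 (adjusted p = 0.0163), by 0.46 ± 0.08 for Mt2 (adjusted p = 4.07e-04) and by 0.37 ± 0.06 for Mt3 (adjusted p = 5.46e-04), where 61.8% of genes passed. In hippocampus relative to cerebellum, Mt3 was higher by 0.86 ± 0.08 (adjusted p = 1.50e-06), Mt1 fell by 0.32 ± 0.07 (adjusted p = 0.00138) and Mt2 fell by 0.44 ± 0.11 (adjusted p = 0.00383), where 81.9% passed.

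The size of these steps depended on the scaling. The median over all genes was itself shifted by 0.31 between cerebellum and neocortex, by 0.08 between hippocampus and neocortex and by -0.23 between hippocampus and cerebellum. Relative to those medians, Mt3 was lower in cerebellum than in neocortex by a difference of -0.79, and higher in hippocampus than in cerebellum by 1.09. Mt2 differed by 0.59, 0.38 and -0.21 in the same 3 comparisons, and Mt1 by 0.22, 0.13 and -0.09. With median-ratio scaling Mt1 kept its call in cerebellum relative to neocortex (0.21, adjusted p = 0.0145), but Mt1 in hippocampus relative to neocortex (0.11, adjusted p = 0.129) and both Mt1 (-0.09, adjusted p = 0.238) and Mt2 (-0.21, adjusted p = 0.121) in hippocampus relative to cerebellum no longer passed by limma. Higher calls made up 71.4%, 65.5% and 32.4% of all calls in the 3 comparisons, and 50.6%, 49.7% and 49.2% with that scaling.

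Mt1, the metal-binding protein of astrocytes named above, was higher in LLC mice in all 3 regions, by 1.38-fold to 1.92-fold, and passed the test in neocortex and hippocampus. In neocortex it had 823, 805, 854 and 578 TPM in LLC libraries, against 514, 476, 554 and 560 TPM in control libraries. LLC replicate 4 was the lowest LLC library and lay just above the highest control, and the groups did not overlap, as held for 17% of genes there. The difference was 0.53 ± 0.11 on the log2 scale (SE; 95% interval 0.28 to 0.78; 1.44-fold), with an adjusted p of 0.0243 by limma, where 8.54% of 14485 genes passed, 5.59% upward and 2.95% downward. Without LLC replicate 4 the difference was 0.66 (adjusted p = 4.57e-05). Without any other single library it was 0.47 to 0.56 and no longer passed (adjusted p 0.0539 to 0.0819): 0.49 without LLC replicate 1, 0.50 without 2, 0.47 without 3, 0.52 without control replicate 14, 0.48 without 15, 0.55 without 16 and 0.56 without 17.

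In hippocampus Mt1 had 863, 847, 932 and 715 TPM in LLC libraries, against 555, 577, 649 and 651 TPM in control libraries. Again LLC replicate 4 was the lowest of the LLC libraries and the groups did not overlap, as held for 13.8% of genes. The difference was 0.46 ± 0.08 (SE; 95% interval 0.27 to 0.65; 1.38-fold; adjusted p = 0.0249 by limma), where 3.61% of 14650 genes passed, 2.58% upward and 1.03% downward. Without LLC replicate 4 it was 0.54 (adjusted p = 0.00200). Without any other single library it was 0.41 to 0.50 and no longer passed (adjusted p 0.0511 to 0.0817): 0.45 without LLC replicate 1 or 2, 0.41 without 3, 0.42 without control replicate 14, 0.44 without 15, 0.49 without 16 and 0.50 without 17.

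The cerebellum had the largest difference in mean Mt1 and the widest spread. Mt1 had 1737, 1803, 1671 and 854 TPM in LLC libraries, against 753, 672, 820 and 797 TPM in control libraries. LLC replicates 1 to 3 were far above every control, and replicate 4 was just above the highest control. The groups did not overlap, as held for 16.7% of genes. The difference of 0.94 ± 0.21 (SE; 95% interval 0.46 to 1.41; 1.92-fold) did not pass (adjusted p = 0.0512 by limma), where 2.5% of 14624 genes passed, 1.23% upward and 1.27% downward. Without LLC replicate 4 it was 1.19 and passed (adjusted p = 1.92e-04), and without LLC replicate 1 it was 0.85 and passed (adjusted p = 0.0410). In the other 6 omissions of 1 library it was 0.83 to 0.98 and did not pass (adjusted p 0.106 to 0.175).

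**Figure D2:**
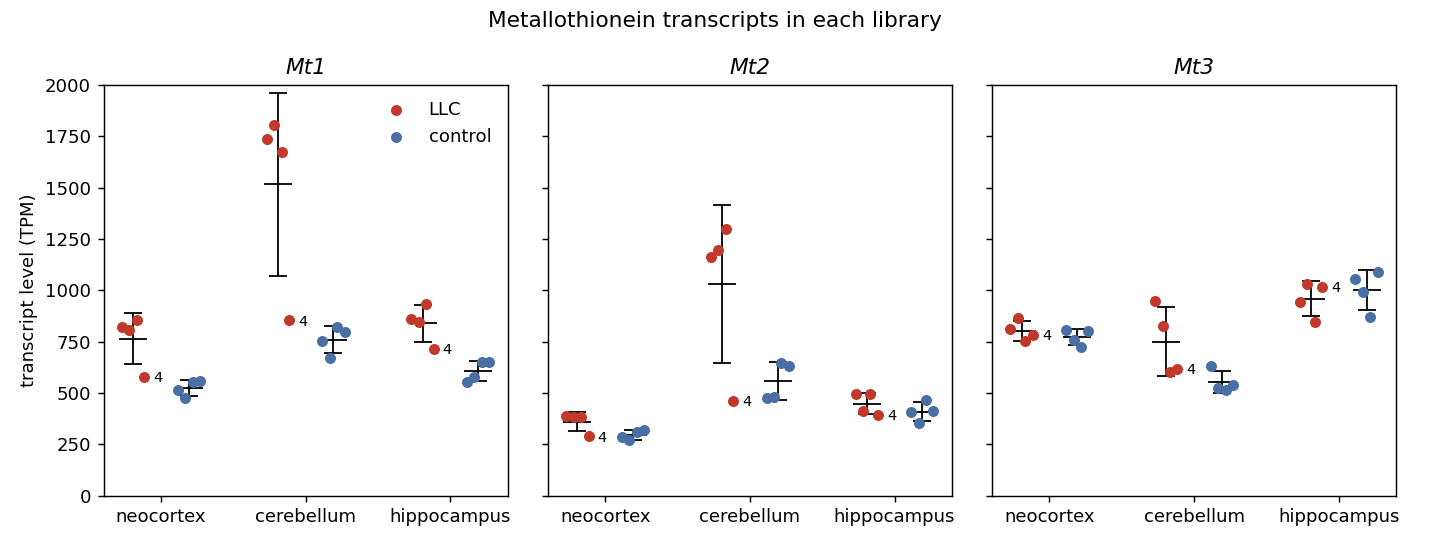
Level of Mt1, Mt2 and Mt3 in every library. The vertical axis is TPM, each point is 1 library, LLC groups stand left of control groups within each region, bars mark the mean and SD of 4 libraries, and LLC replicate 4 is labelled 4. Mt1 in LLC libraries lies above all controls of its region, with replicate 4 nearest to them.

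Mt2, which shares the metal-binding role and the inducers of Mt1, was higher on average in LLC mice but did not pass the test in any region. It had 388, 384, 383 and 288 TPM in LLC neocortex, against 284, 271, 311 and 320 TPM in control neocortex. LLC replicates 1 to 3 were above every control and LLC replicate 4 lay among them. The difference was 0.28 ± 0.09 (SE; 95% interval 0.07 to 0.49; adjusted p = 0.0901 by limma), and 0.38 without LLC replicate 4, which passed (adjusted p = 0.00107). In the other 7 omissions of 1 library it did not pass (adjusted p up to 0.220 by limma).

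In cerebellum Mt2 had 1162, 1198, 1300.2 and 463 TPM in LLC libraries, against 474, 481, 647 and 631 TPM in control libraries. LLC replicates 1 to 3 were well above every control, and LLC replicate 4 was below every control. The difference was 0.79 ± 0.29 (SE; 95% interval 0.13 to 1.45; adjusted p = 0.144 by limma), and 1.14 without LLC replicate 4, which passed (adjusted p = 0.00222). In the other 7 omissions of 1 library it did not pass (adjusted p up to 0.324 by limma). In hippocampus Mt2 had 493, 412, 493 and 395 TPM in LLC libraries, against 406, 354, 464 and 412 TPM in control libraries. The groups overlapped, with 2 LLC libraries above every control. The difference was 0.13 ± 0.10 (SE; 95% interval -0.08 to 0.34; adjusted p = 0.457 by limma), so an increase of up to 0.34 lies within the interval. Without LLC replicate 4 it was 0.19 (adjusted p = 0.221), and over all 8 omissions of 1 library it ranged from 0.06, without control replicate 15, to 0.19 and did not pass.

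Mt3, the member most tied to neurons, did not pass the test in any region. In neocortex it had 809.7, 864, 751 and 782 TPM in LLC libraries, against 809, 756, 722 and 802 TPM in control libraries. The groups overlapped almost fully, and the difference was 0.05 ± 0.05 (SE; 95% interval -0.06 to 0.17; adjusted p = 0.526 by limma). In hippocampus the LLC libraries had 944, 1032, 847 and 1017 TPM, against 1055, 991, 871 and 1087.5 TPM in control libraries. Here too the groups overlapped, with a difference of -0.06 ± 0.08 (SE; 95% interval -0.24 to 0.12; adjusted p = 0.718 by limma).

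In cerebellum Mt3 had 950.2, 826, 603 and 618 TPM in LLC libraries, against 631, 522, 515 and 539.9 TPM in control libraries. LLC replicates 1 and 2 were above every control, and replicates 3 and 4 were within the range of the controls, so the libraries high for Mt3 were not the same 3 that were high for Mt1 and Mt2. The difference of 0.42 ± 0.14 (SE; 95% interval 0.09 to 0.74) did not pass (adjusted p = 0.124 by limma), nor did it without LLC replicate 4 (0.50, adjusted p = 0.0627). LLC replicate 1, which had the highest Mt3, is the library low in cerebellum markers, and without it the difference was 0.29 (adjusted p = 0.119).

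By group mean, the order of Mt1 levels was LLC cerebellum, LLC hippocampus, LLC neocortex, control cerebellum, control hippocampus and control neocortex, from highest to lowest. Neighbours in that order overlapped except control cerebellum and control hippocampus. For Mt2 the order was LLC cerebellum, control cerebellum, LLC hippocampus, control hippocampus, LLC neocortex and control neocortex. For Mt3 it was control hippocampus, LLC hippocampus, LLC neocortex, control neocortex, LLC cerebellum and control cerebellum. All neighbours overlapped for Mt2 and for Mt3.

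**Figure D3:**
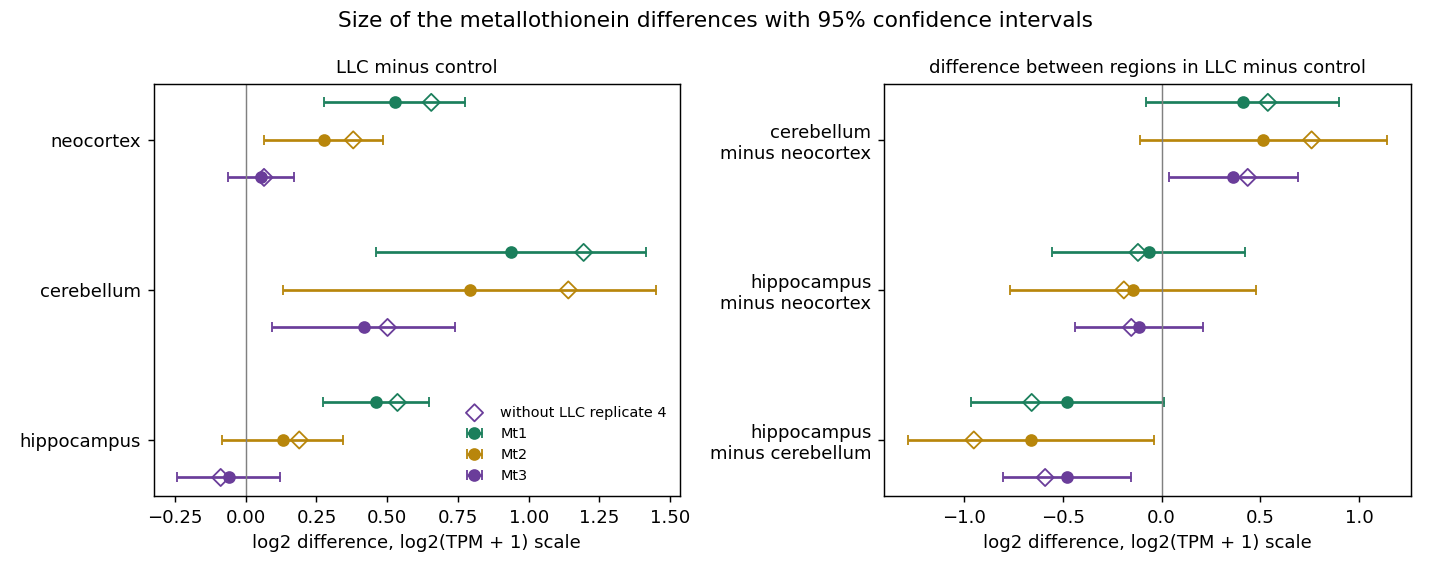
Left, LLC minus control libraries in log2(TPM + 1) for each member and region; right, the difference of that value between regions. Filled points carry 95% intervals, and open diamonds leave out LLC replicate 4. In the left panel the diamonds of Mt1 and Mt2 lie right of the filled points in every region, at 1.19 and 1.14 in cerebellum.

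Whether the response to LLC cells differed between regions was tested as a difference of the 2 differences in 1 fit of all 24 libraries. For Mt1 the difference in cerebellum exceeded that in neocortex by 0.41 ± 0.24 (SE; 95% interval -0.08 to 0.90; adjusted p = 0.483 by limma), and the difference in hippocampus was lower than that in cerebellum by a value of -0.48 ± 0.24 (adjusted p = 0.414). For Mt2 the corresponding values were 0.52 ± 0.30 (adjusted p = 0.495) and -0.66 ± 0.30 (adjusted p = 0.372), and for Mt3 they were 0.36 ± 0.16 (adjusted p = 0.321) and -0.48 ± 0.16 (adjusted p = 0.243). None passed, against 0.646% of 13783 genes for cerebellum minus neocortex and 0.0936% of 13884 genes for hippocampus minus cerebellum. Between hippocampus and neocortex the values were -0.07 for Mt1, -0.15 for Mt2 and -0.11 for Mt3 (each adjusted p = 1.00 by limma). There limma called 0% of 14152 genes, with 271 genes at an unadjusted p under 0.05.

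Leaving out LLC replicate 4 changed several of these calls. With it left out of all 3 regions, an alternative chosen after the data were seen, the difference in cerebellum exceeded that in neocortex by 0.54 for Mt1 (adjusted p = 0.0108 by limma) and by 0.76 for Mt2 (adjusted p = 0.0133). In hippocampus relative to cerebellum the values were then -0.66 for Mt1 (adjusted p = 0.00267) and -0.95 for Mt2 (adjusted p = 0.00298). Mt1 and Mt2 also passed when cerebellum LLC replicate 4 alone was left out, with 0.67 (adjusted p = 0.0229) and 0.86 (adjusted p = 0.0107) for cerebellum minus neocortex, and -0.73 (adjusted p = 0.0180) and -1.01 (adjusted p = 0.00358) for hippocampus minus cerebellum.

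Ratios between members within a library do not depend on how that library was scaled. The log2 ratio of Mt1 to Mt2 was 1.08 ± 0.06 in LLC neocortex and 0.83 ± 0.02 in control neocortex (SD, n = 4 each), and all 4 LLC libraries were above all controls. It was 0.90 ± 0.10 in LLC hippocampus and 0.57 ± 0.13 in control hippocampus, again with no overlap. Both differences had an exact permutation p of 0.0286, the smallest that 4 against 4 libraries allow, and 0.129 after adjustment over 9 ratios, so neither passed. Unless most of the 9 reach that smallest p, even groups that do not overlap cannot pass, so the lack of a call decides little. In cerebellum the ratio of Mt1 to Mt2 was 0.60 ± 0.21 in LLC libraries and 0.46 ± 0.16 in control libraries (exact permutation p = 0.314, adjusted p = 0.354). The log2 ratio of Mt1 to Mt3 was higher by 0.47, 0.52 and 0.52 in LLC neocortex, cerebellum and hippocampus, with exact permutation p-values of 0.0571, 0.0857 and 0.0571 and adjusted values of 0.129, 0.154 and 0.129. For Mt2 to Mt3 the differences were 0.22, 0.37 and 0.19, with adjusted p-values of 0.171, 0.371 and 0.294 by the same exact test. Leaving out 1 library moved some of these differences widely. In cerebellum Mt2 to Mt3 came to 0.13 without LLC replicate 3, 0.23 without control replicate 14 and 0.64 without LLC replicate 4, and Mt1 to Mt2 to 0.05 without LLC replicate 4 and 0.23 without LLC replicate 3. In hippocampus Mt2 to Mt3 ranged from 0.08 without LLC replicate 3 to 0.32 without control replicate 16.

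**Figure D4:**
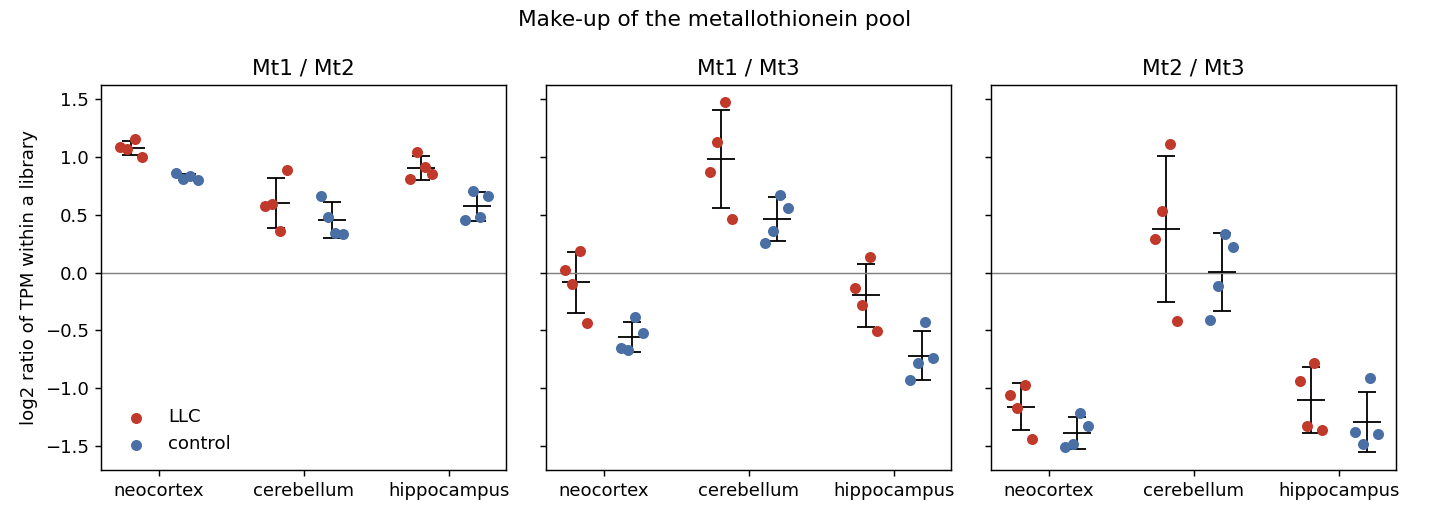
Log2 ratios between pairs of metallothioneins within each library. Each point is 1 library, with LLC libraries left of controls, and bars mark the mean and SD of 4 libraries. The ratio of Mt1 to Mt2 separates the groups in neocortex and hippocampus and not in cerebellum.

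The astrocyte is the main brain source of Mt1 and Mt2, and in bulk tissue more RNA per cell and more cells of a type cannot be told apart. The mean of 15 astrocyte markers differed from its control mean by -0.15 to 0.14 on the log2 scale in LLC libraries. The level of Mt1 relative to that mean was 2.44 ± 0.31 in LLC and 1.95 ± 0.13 in control neocortex, 2.89 ± 0.58 in LLC and 1.85 ± 0.13 in control cerebellum, and 2.59 ± 0.26 in LLC and 2.12 ± 0.09 in control hippocampus (log2 units, SD, n = 4 each). The differences were 0.49, 1.04 and 0.48, with exact permutation p-values of 0.0857, 0.0286 and 0.0571 and adjusted values of 0.193, 0.171 and 0.171 over 9 tests. Those of Mt2 were 0.24, 0.89 and 0.15 (adjusted p 0.214, 0.214 and 0.478 by the same exact test), and those of Mt3 were 0.02, 0.52 and -0.04 (adjusted p 0.743, 0.171 and 0.743). The limit given above for exact tests adjusted over 9 holds for these as well. The markers themselves did not move as one. In neocortex 5 of 15 rose and 1 fell, where 5.59% of all genes passed upward and 2.95% downward. By limma Gjb6, a gap junction protein, rose to 92.1 ± 18.4 TPM in LLC against 55.0 ± 5.66 TPM in control libraries (adjusted p = 0.0189), while Aqp4, the water channel of astrocyte endfeet, fell to 51.7 ± 15.04 TPM in LLC against 79.6 ± 5.15 TPM in control libraries (adjusted p = 0.0344). In cerebellum 1 of 15 rose and 1 fell, beside 1.23% and 1.27% of all genes, and in hippocampus 3 of 15 rose, beside 2.58%.

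The regulators known to act on metallothionein genes did not pass the test in any region. None of 6 (Mtf1, Nr3c1, Stat3, Nfe2l2, Usf1 and Usf2) did, in neocortex, cerebellum or hippocampus, against the 8.54%, 2.5% and 3.61% of all genes given above. With only 6 genes, the lack of a call does not set this list apart from those shares. Mtf1, the zinc sensor, had a difference of -0.00 in neocortex (adjusted p = 0.980 by limma), -0.35 ± 0.11 in cerebellum (adjusted p = 0.0962) and -0.10 in hippocampus (adjusted p = 0.548). Nr3c1, the glucocorticoid receptor, had 44.2 ± 8.41 TPM in LLC libraries and 61.0 ± 3.97 TPM in control libraries of cerebellum (difference -0.48 ± 0.13, adjusted p = 0.0794 by limma). Stat3 had 18.8 ± 0.90 TPM in LLC libraries and 16.4 ± 0.71 TPM in control libraries of neocortex (difference 0.18 ± 0.05, adjusted p = 0.0508). These are RNA levels and say nothing of the activity of the proteins.

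Genes that handle zinc and copper were read from the same tests, where 8.54%, 2.5% and 3.61% of all genes passed in neocortex, cerebellum and hippocampus. Slc30a1, the zinc exporter of the plasma membrane that MTF1 also switches on, had differences of 0.09 in neocortex, -0.04 in cerebellum and 0.08 in hippocampus (adjusted p 0.341, 0.808 and 0.423 by limma). Of 10 zinc exporters of the Slc30 family 8 were tested, and none passed in any region. Of 14 zinc importers of the Slc39 family 13 were tested, and 1 passed: Slc39a10 fell to 39.3 ± 3.70 TPM in LLC cerebellum, against 51.0 ± 2.98 TPM in control cerebellum (difference -0.37 ± 0.08, adjusted p = 0.0479). Of 12 genes of copper handling 1 passed, Cp, the copper-carrying ferroxidase ceruloplasmin, which rose to 10.1 ± 1.69 TPM in LLC neocortex, against 6.21 ± 0.32 TPM in control neocortex (difference 0.61 ± 0.10, adjusted p = 0.0111). With lists this short, a count of 1 does not set a list apart from those shares. The median differences of the exporters were 0.03, -0.11 and 0.03, those of the importers 0.03, -0.06 and 0.01, and those of all genes 0.01, -0.04 and 0.01, in neocortex, cerebellum and hippocampus. Of 12 targets of NRF2, the factor that acts through antioxidant response elements, 11, 12 and 11 were tested and 1 passed, Slc7a11, which fell in cerebellum (difference -0.77 ± 0.08, adjusted p = 0.00821).

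Lists of genes raised by the other known inducers of Mt1 and Mt2 were set beside them. Of 18 genes induced by glucocorticoids none passed downward, while 4 rose in hippocampus, 3 in cerebellum and 5 in neocortex, with median differences of 0.45, 0.55 and 0.58 in that order. Of all genes, 2.58%, 1.23% and 5.59% passed upward in those regions. Some members that did not pass had lower means in LLC libraries, among them Dusp1 (-0.29) and Per1 (-0.09) in neocortex, named after their values were seen. Cebpd, a transcription factor, rose in all 3, to 11.6 ± 4.47 TPM in LLC against 4.08 ± 0.78 TPM in control neocortex (adjusted p = 0.0178 by limma), to 11.5 ± 4.75 against 3.95 ± 0.54 TPM in LLC and control cerebellum (adjusted p = 0.0454), and to 28.4 ± 4.16 against 16.3 ± 0.92 TPM in LLC and control hippocampus (adjusted p = 0.00760). Map3k6, a stress-activated kinase, rose in all 3 as well. Sult1a1, a sulfotransferase, rose in neocortex and hippocampus, and Cdkn1a, an inhibitor of the cell cycle, rose in cerebellum and hippocampus. Of 12 genes that respond to interleukin 6 and STAT3, none passed downward, while 4 of 9 tested rose in hippocampus, 7 of 11 in cerebellum and 8 of 9 in neocortex, beside the same 2.58%, 1.23% and 5.59% of all genes. Lcn2, an iron-siderophore binding protein, and Lrg1, a secreted glycoprotein, rose in every region, and so did the adhesion molecule Icam1 and the oncostatin M receptor Osmr.

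The libraries were not ordered alike by these 2 lists. The mean of the glucocorticoid-induced genes stood 0.97, 0.85, 0.82 and -0.02 above the control mean on the log2 scale in neocortex LLC replicates 1 to 4, against -0.24 to 0.16 in controls. In cerebellum it was 1.03, 0.91, 0.90 and 0.02 in LLC libraries against -0.29 to 0.21 in controls, and in hippocampus 0.77, 0.87, 0.79 and 0.12 against -0.26 to 0.19. LLC replicate 4 was within the range of the controls in all 3 regions, and replicates 1 to 3 were above it. Mt1 measured in the same way was 0.65, 0.62, 0.70 and 0.14 in LLC neocortex, 1.19, 1.25, 1.14 and 0.17 in LLC cerebellum, and 0.51, 0.48, 0.62 and 0.24 in LLC hippocampus. Mt2 was 0.39, 0.38, 0.37 and -0.04, then 1.07, 1.12, 1.23 and -0.26, then 0.28, 0.02, 0.28 and -0.04, in the same libraries. Among LLC libraries, Mt1 and Mt2 were lowest in replicate 4 of each region. Mt1 in replicate 4 was still above every control, the highest of which stood at 0.09, 0.11 and 0.10 in neocortex, cerebellum and hippocampus. Mt2 in replicate 4 was within the range of the controls in neocortex and hippocampus and below it in cerebellum. Hippocampus LLC replicate 2 had Mt2 at 0.02 beside the highest glucocorticoid-induced mean of that region (0.87). The interleukin 6 and STAT3 genes stood at 1.06, 1.08, 0.95 and 0.81 in LLC neocortex, 1.09, 0.89, 0.80 and 0.71 in LLC cerebellum and 0.72, 0.84, 0.53 and 0.75 in LLC hippocampus, so replicate 4 was above every control for them. The part of either list in the metallothionein values was not tested.

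**Figure D5:**
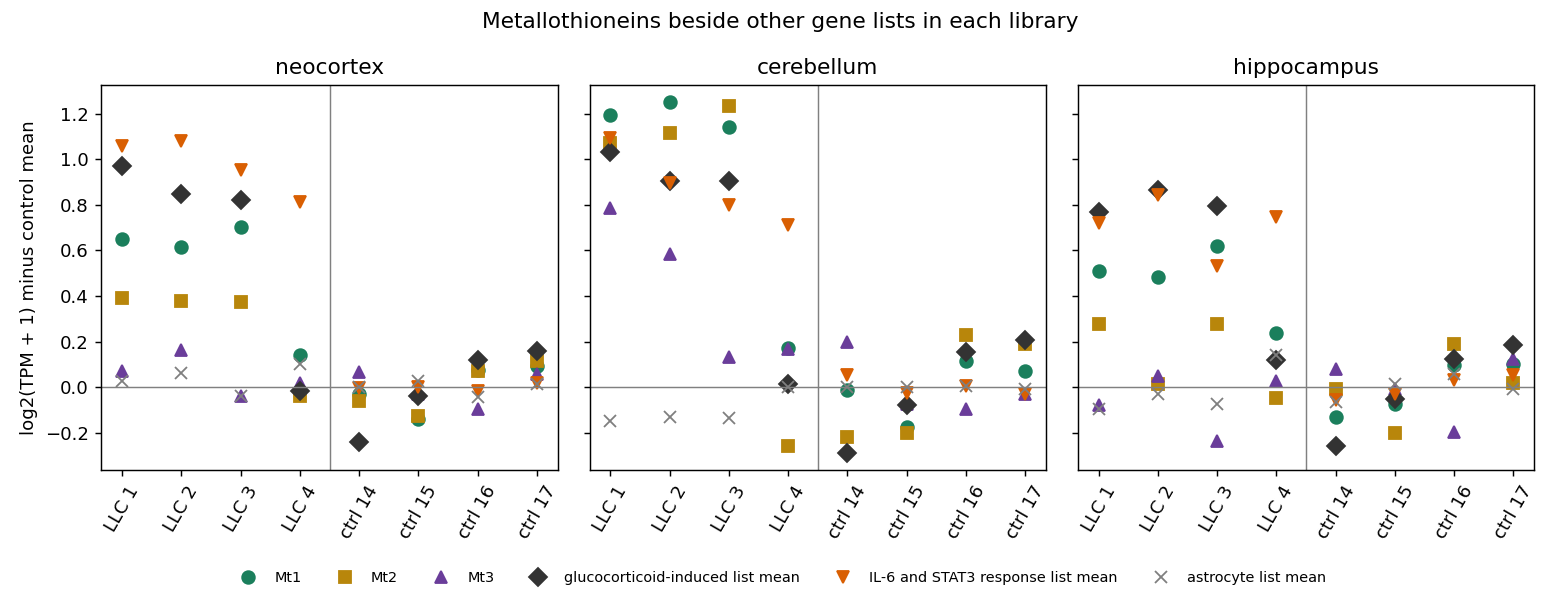
Mean log2 difference from the control mean of the region for Mt1, Mt2, Mt3 and for 3 gene lists, in every library. The horizontal axis names the library, LLC left of control, and symbols are the members and the means of the glucocorticoid-induced, interleukin 6 and STAT3, and astrocyte lists. In LLC replicate 4 of each region the glucocorticoid-induced genes lie within the range of the controls, and the interleukin 6 and STAT3 genes lie above it.

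Markers of other cells moved with the groups too. The summed level of 7 erythrocyte genes was 3565 to 15181 TPM in LLC libraries and 1124 to 1507 TPM in control libraries of neocortex, 4250 to 15582 and 1216 to 1624 TPM in LLC and control cerebellum, and 2622 to 10400.1 and 729 to 1181 TPM in LLC and control hippocampus. LLC replicate 4 was the lowest LLC library here as well, with a mean of 1.41, 1.34 and 1.56 above controls, where replicates 1 to 3 had 2.90 to 3.57. Of 10 endothelial genes 9, 4 and 7 rose in neocortex, cerebellum and hippocampus, beside 5.59%, 1.23% and 2.58% of all genes. They summed to 429 to 639 TPM in LLC libraries and 271 to 310.1 TPM in control libraries of neocortex, 424 to 711 and 335 to 347 TPM in LLC and control cerebellum, and 333 to 458 and 211 to 252 TPM in LLC and control hippocampus. Neutrophil genes were highest in LLC replicates 2 and 4. Choroid plexus genes ranged widely in hippocampus, from 54.7 to 7466 TPM in LLC and 52.1 to 4102 TPM in control libraries, and none of their 7 markers passed in any region. With the libraries rescaled without haemoglobin and mitochondrial genes, Mt1 differed by 0.96 in cerebellum (adjusted p = 0.0486 by limma) and by 0.45 in hippocampus (adjusted p = 0.0281). That rescaling changes the total to which a library is scaled and does not measure metallothionein RNA from any of these cells. The part of these cells in the metallothionein values was not tested.

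Genes whose pattern was most like each member were found by Pearson correlation of log2(TPM + 1), centred within each region, over 24 libraries and 10653 genes. The points share the LLC difference, the regions and the libraries, so r is given as a description. Closest to Mt1 were Ttyh1 (r = 0.97), a membrane protein of the tweety family, Prodh (0.96), the proline dehydrogenase of mitochondria, Pnpla7 (0.95), a lysophospholipase, Glul (0.95), the glutamine synthetase of astrocytes, and Pnpla2 (0.95), the triglyceride lipase of lipid droplets. Prodh averaged 39.2 ± 8.43 TPM in LLC libraries and 20.7 ± 0.81 TPM in control libraries of cerebellum. Closest to Mt2 were Fkbp5 (0.92), a glucocorticoid-induced co-chaperone of the glucocorticoid receptor, Mt1 (0.91), Lrrc8a (0.89), a subunit of the volume-regulated anion channel, Nbl1 (0.88), a secreted antagonist of bone morphogenetic proteins, and Glul (0.88). Fkbp5 averaged 31.1 ± 10.9 TPM in LLC libraries and 16.9 ± 2.36 TPM in control libraries of neocortex, a difference that did not pass (adjusted p = 0.0740 by limma).

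Mt3 had other neighbours. Among the closest were Atox1 (0.90), the copper chaperone of the cytosol, Rps16 (0.88) and Rplp1 (0.87), which are ribosomal proteins, and Pmm1 (0.87), a phosphomannomutase. Mt2 stood at place 30 among the genes most like Mt1, while Mt3 stood at place 1304 (r = 0.54). Among the genes most like Mt2, Mt3 stood at place 921 (r = 0.48). Atox1 averaged 135 ± 25.7 TPM in LLC libraries and 108 ± 10.3 TPM in control libraries of cerebellum, a difference that did not pass by limma. Within cerebellum Mt3 was highest in LLC replicate 1, the library low in cerebellum markers. The part of that library in the correlations with Mt3 was not tested.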

How the data were processed

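Per the labels' protocols, Trizol was used to extract RNA, a TruSeq kit that keeps the strand to prepare mRNA libraries, and a NovaSeq to read them. The authors deposited 1 table of TPM values for 47643 symbols in 24 libraries. Per the submitters' processing notes, mm10 was the genome. Aligner, counting tool and annotation were not given in the sources used here. With no read number in the values, no counting interval is given. A gene that takes a larger share of a library lowers the TPM of the others.

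From these values log2(TPM + 1) was computed, and LLC and control libraries of a region were compared with limma 3.58.1 under R 4.3.3 (linear fit, empirical Bayes, trended prior). Genes entered at a mean of 1 TPM or more in the 8 libraries, tests were two-sided, and the Benjamini-Hochberg threshold was 0.05. All fold changes carry the added 1, so low genes are understated. Regional contrasts of the LLC difference came from a joint fit of 24 libraries, and regions of control brain were compared over 8 control libraries. Ratios within a library were tested with two-sided exact permutation tests, adjusted over 9. The fits were also run on simulated data, with independent noise in each gene and the same spread in all groups. Such data hold no library that deviates across many genes, as LLC replicate 4 did, so they do not test that case. P-values set a difference against the spread between these libraries, which were taken as independent except in the replicate block.

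The members and gene lists were chosen with earlier results of these data known. Genes named are the members, at most 4 passing genes of a list and region by p, the regulators and Slc30a1, and the 5 genes most correlated with each member (mean of at least 5 TPM in every region), of which 1 is not reported here. Usf1, Usf2 and Nfe2l2 are counted and not described. Fkbp5 was named through its correlation. Promoters are RefSeq windows of GRCm38.p6, and gene models are GENCODE M21. Alternatives were a pseudocount of 0.1, a filter at 5 TPM, no filter, scaling by quantiles or by median ratios, rescaling without haemoglobin and mitochondrial genes, library weights, 1 fit of all libraries, a replicate block and leaving out each replicate. Plots used matplotlib 3.10.9 (Python 3.11.15).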

Additional observations from a re-analysis of the deposited data

Results flagged for a closer look

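In 54 groups of 4 libraries, levels and within-library values of the members were searched for a library whose gap to the nearest other exceeds Dixon's critical value at the 95% level. Chance gives this in about 1 of 20 groups. Of these groups 5 held such a library, and in all 5 it was LLC replicate 4. Mt2 had 288 TPM in neocortex LLC replicate 4, where the other LLC libraries had 383 to 388 TPM. Mt1 had 854 TPM in cerebellum LLC replicate 4, where the others had 1671 to 1803 TPM. Mt2 had 463 TPM in the same library, where the others had 1162 to 1300.2 TPM. Relative to the mean of the astrocyte markers, on the log2 scale, Mt1 stood at 2.02 in that library and at 3.13 to 3.23 in the others. Mt2 stood at 1.14 there and at 2.61 to 2.76 in the others. These cerebellum values come from 1 library and are not independent of each other.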

How the results depend on the processing

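Over 747 alternative values for the members, 693 were counted as unchanged, 27 gained a call, 26 lost one and 1 turned round. For limma values unchanged means the same direction and side of the threshold. Within-library values with 1 library left out had no p and counted as unchanged when they shifted by less than the SD. Their replicate block was always counted so. Signs could turn under that rule: Mt3 relative to the astrocyte markers reached 0.0035 in hippocampus (main -0.045) and -0.013 in neocortex (main 0.016). Except where stated, the cause was not tested, and adjusted p-values are by limma.

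For LLC against control, Mt1 lost its call without a filter in neocortex (0.53, adjusted p = 0.0572) and hippocampus (0.46, 0.0530), and with all 24 libraries in 1 fit (0.53, 0.0677, and 0.46, 0.112). Mt1 in cerebellum passed with median-ratio scaling (0.98), quantile scaling (0.74), rescaling without haemoglobin and mitochondrial genes (0.96), library weights (1.11) and all libraries in 1 fit (0.94). Library weights also gave calls to Mt2 in neocortex (0.33) and cerebellum (0.94) and to Mt3 in cerebellum (0.54), and 1 fit of all libraries to Mt2 (0.79) and Mt3 (0.42) in cerebellum. For differences between regions, library weights gave calls to Mt1 (0.51) and Mt3 (0.46) for cerebellum minus neocortex and to Mt3 (-0.61) for hippocampus minus cerebellum. Leaving LLC replicate 4 out of all regions did so for Mt1 (0.54 and -0.66) and Mt2 (0.76 and -0.95). In control brain, median-ratio scaling ended the calls of Mt1 in hippocampus against neocortex (0.11) and of Mt1 (-0.091) and Mt2 (-0.21) in hippocampus against cerebellum. One fit of all libraries ended those of Mt1 (0.21) and Mt2 (0.46), and of Mt1 (-0.32) and Mt2 (-0.44).

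Leaving out 1 replicate at a time gave Mt1 0.47 to 0.66, 0.83 to 1.19 and 0.41 to 0.54 in neocortex, cerebellum and hippocampus, and Mt2 0.23 to 0.38, 0.64 to 1.14 and 0.06 to 0.19. Cerebellum minus neocortex ran from 0.28 to 0.67 for Mt1 and 0.37 to 0.86 for Mt2, and hippocampus minus cerebellum from -0.73 to -0.37 and -1.01 to -0.51. Hippocampus minus neocortex for Mt1 ran from -0.19 to 0.01 and turned round to 0.0096 without hippocampus LLC replicate 4.

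LLC and control libraries with one description number deviated together (r above 0.1) in 5 of 12 pairs (r -0.26 to 0.47). Libraries of 2 regions with one title number did so in 16 of 24 pairs (r -0.10 to 0.63). In 18 of those 24 the library with the same number was the most alike of the 4 in its group. The regions may thus share animals, but no label says so and pairing was not established. The joint fit of 24 libraries took them as independent. With the description number as a replicate block in a region, Mt1 (0.94, adjusted p = 0.0394) and Mt3 (0.42, 0.0457) passed in cerebellum and Mt1 in hippocampus did not (0.46, 0.0535). The title number as a block across regions changed no call of a member. Genes called moved from 1237 to 641 in neocortex, 366 to 724 in cerebellum and 529 to 179 in hippocampus. Over all settings they ranged from 577 to 4337, 71 to 5769 and 179 to 1180, and from 187 to 3834, 6 to 1570 and 57 to 1667 with 1 replicate left out. Differences between regions ranged from 51 to 2052 (89 in the text's fit) and 3 to 595 (13). TPM gives no depth, so what depth limits is not known.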
